A study of Rattus norvegicus with 20 samples.

Results

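Cornification is the last step in the life of a keratinocyte of the epidermis. The cell fills with keratin, replaces its membrane by a cross-linked protein envelope coated with lipids, and is shed from the surface once proteases have cut the junctions that hold it. Epidermis and footpad skin cornify, the linings of the mouth and esophagus of rodents do so too, the vagina does so in phases of the cycle, and the trachea is lined by a ciliated epithelium that normally does not. The 9 genes described here act in different parts of this program. Cnfn (cornifelin) and Ivl (involucrin) are proteins of the envelope and Tgm3 is a transglutaminase that cross-links such proteins. Krt1 is a keratin of the suprabasal epidermis. Sbsn (suprabasin) and Dmkn (dermokine) are secreted by suprabasal keratinocytes, and Klk8 is a serine protease of the kallikrein family found in the upper epidermis. Lgals7 (galectin-7) is a lectin of stratified epithelia, and Ly6d is a surface protein of the Ly6 family that is anchored to the membrane by a lipid. The genes were chosen by name, with earlier results of these data known, so their counts beside the shares of all probe sets are a description. For each, the probe set that carries this symbol alone was used, and all 9 of the 14506 symbols with a probe set of their own had exactly 1 such probe set.

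The donors were Sprague-Dawley rats at postnatal day 200 with constitutive expression of EGFP, a green fluorescent protein, throughout the body. Epithelial cells of oral mucosa, vagina, esophagus, footpad and trachea were cultured on irradiated mouse 3T3-J2 fibroblasts, which serve as a feeder layer. One set of cultures was sampled before transplantation. The other was sampled after the cells had been placed once into newborn mouse skin grafted on nude mice, recovered from the graft and cultured again, and all cultures were sorted for EGFP before RNA was extracted. The sort selects against mouse cells of the feeder layer and of the host, but not against rat cells of another type. How completely it removed the mouse cells was not tested. All samples are therefore cultured cells of 1 transgenic strain, and not tissue. Cells of whisker and thymus were not analysed here.

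Each of the 5 tissues had 2 arrays before and 2 after, 20 arrays in 10 groups, with 100 ng of RNA per array. RMA summarizes the probes of a set in 1 log2 value, where a step of 1 stands for 2-fold, and 29215 probe sets were measured. Between the duplicates of a group, Pearson's r across all of them was 0.991 to 0.996. Probe sets are not comparable in level between genes, and the table gives no detection call. As a guide to low values, the 40th percentile of all values, 4.76, is used below and called the low level. Changes are after minus before ± SE of a limma fit over all 10 groups, and a gene is said to have risen or fallen where its Benjamini-Hochberg adjusted p over all probe sets was under 0.05 and its fold over 2. The spread behind these p-values is that of 2 cultures in a group, and not that of animals or grafts. In such bulk samples a smaller share of differentiating cells and less RNA in each of them cannot be told apart. Where stages are said to overlap or to be apart, this describes 2 arrays against 2. The share of all probe sets with stages apart was not computed. Markers of stratified epithelium were high at both stages. Krt14, a keratin of the basal layer, lay between 13.05 and 13.33 in the group means, Tp63, the transcription factor of stratified epithelia, lay between 9.03 and 10.05, and neither passed the test in any tissue. Krt5 had no probe set under its symbol. Krt15, another basal keratin, passed in all 5 tissues, with changes from −3.57 in vagina to 3.40 in footpad. Keratins of simple epithelium were high in trachea before transplantation, with group means of 11.61 for Krt8 and 10.90 for Krt19.

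The question was whether genes of the cornification program moved together when cells of 5 epithelia passed through skin, and in which direction. They had no common direction. Cnfn, Sbsn and Ly6d rose in some tissues and fell in others, Tgm3, Dmkn and Klk8 only fell, Krt1 and Lgals7 only rose, and Ivl passed the test in no tissue. In oral mucosa 6 of the 9 members fell and 0 rose, beside 2.15% of all probe sets lower and 1.5% higher. In footpad 4 rose and 1 fell, beside 4.28% higher and 2.64% lower. In trachea 3 rose and 0 fell (0.496% higher and 0.883% lower over all probe sets), and in vagina 2 rose and 0 fell (0.534% and 1.68%). In esophagus only Cnfn passed the test and it fell, beside 0.558% of all probe sets lower and 0.517% higher. The median change of the members was −1.85 in oral mucosa, −0.39 in esophagus, 0.35 in vagina, 0.35 in trachea and 0.86 in footpad. The median over all probe sets lay between −0.03 and 0.06 in the 5 tissues.

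**Figure D1:**
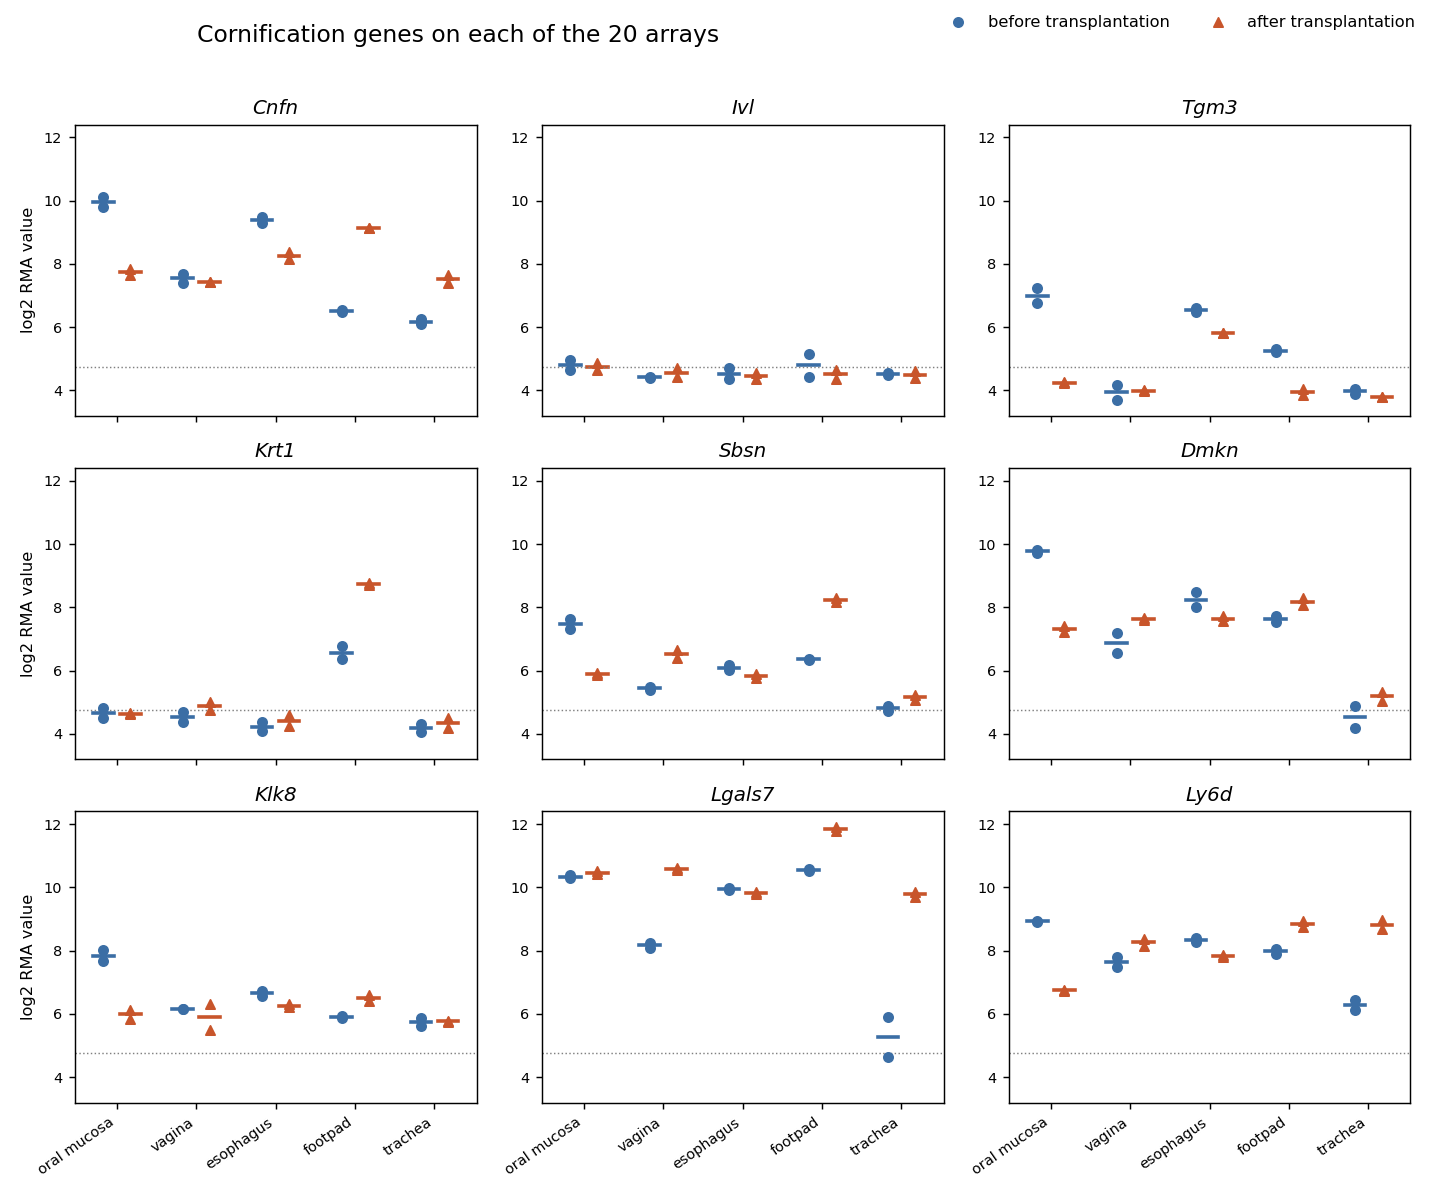
Level of each of the 9 cornification genes on the 20 arrays, as log2 RMA values, with circles before and triangles after transplantation, a bar at the mean of each pair and the low level of 4.76 as a dotted line. Cnfn goes down in oral mucosa and up in footpad, Lgals7 goes up most in trachea, Krt1 stands above the dotted line on every array only in footpad, and Ivl lies near the line everywhere.

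**Figure D2:**
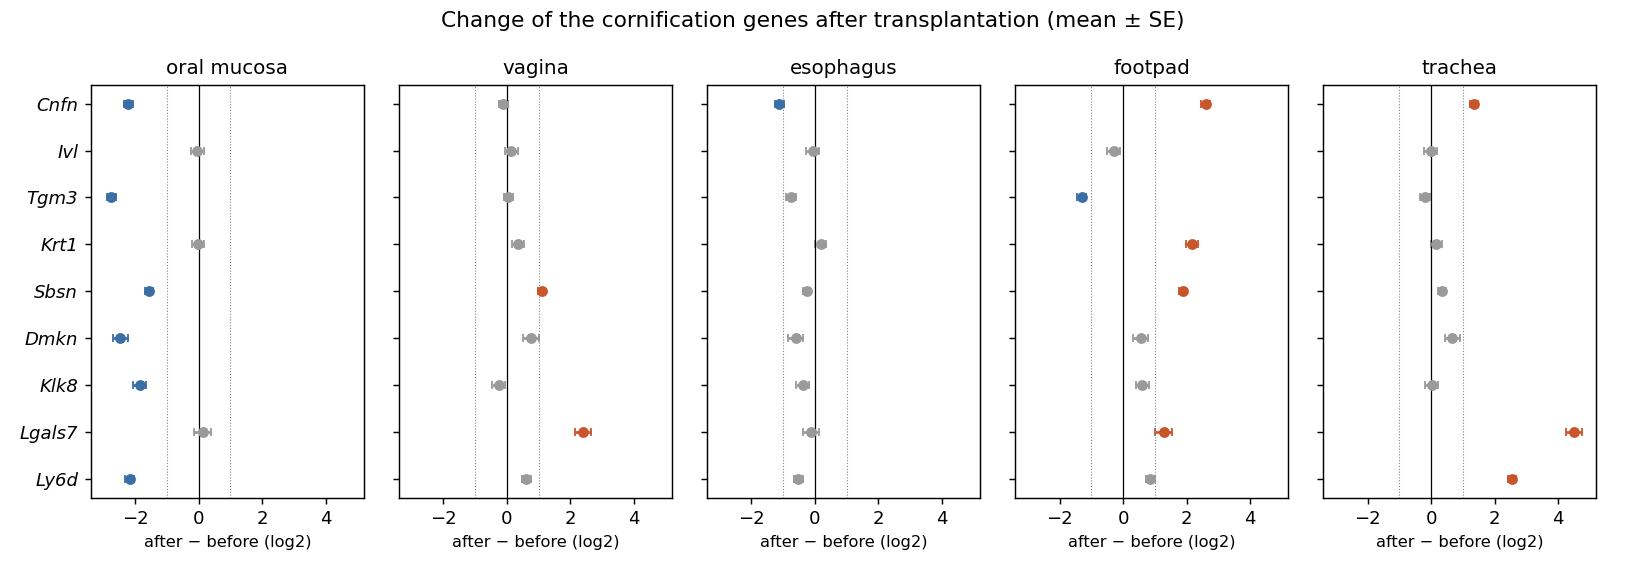
Change of each gene in each tissue (after minus before on the log2 scale, ± SE of the limma fit), in orange where it rose, blue where it fell and gray where it did not pass the test, with dotted lines at a 2-fold change. Oral mucosa has 6 blue points, footpad 4 orange and 1 blue, trachea 3 orange, vagina 2 orange and esophagus 1 blue.

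The difference of response between tissues was itself tested. By limma's F test over the 5 responses, with a largest difference between 2 responses over 1, the response differed between tissues for 8 of the 9 members (18.5% of all probe sets), all but Ivl (adjusted p = 0.749). The largest adjusted p among the 8 was 0.000114, that of Klk8. Whether a part of the response was common to the tissues was not settled. Limma's test of the mean response took the spread between tissues as its error. In it 0 of 9 members passed, as did 0% of all probe sets. Because that test called no probe set at all, its result says nothing particular about the members. At an unadjusted p under 0.05 that test held 3273 probe sets, and 2 members were among them. These were Tgm3, with a mean change of −0.99 ± 0.39 and a limma p of 0.0409, and Lgals7, with 1.64 ± 0.66 and a limma p of 0.0433, and their adjusted p were 0.42 and 0.427.

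Among the proteins of the envelope, Cnfn had the widest span of responses. In oral mucosa it stood at 10.11 and 9.81 before and at 7.85 and 7.65 after. In footpad it stood at 6.49 and 6.56 before and at 9.13 and 9.12 after. The arrays of the 2 stages did not overlap in either tissue, and the shifts ran in opposite directions. Cnfn thus fell by 2.21 ± 0.13 in oral mucosa (4.63-fold, limma adjusted p = 4.67e-08) and rose by 2.60 ± 0.13 in footpad (6.08-fold, limma adjusted p = 4.11e-09). In trachea it went from 6.25 and 6.11 to 7.41 and 7.65, a rise of 1.35 ± 0.13, and in esophagus from 9.47 and 9.29 to 8.38 and 8.15, a fall of 1.12 ± 0.13. In vagina, with 7.40 and 7.69 before and 7.44 and 7.44 after, the stages overlapped, and the change of −0.11 had a 95% interval of −0.40 to 0.18. Before transplantation Cnfn was thus highest in oral mucosa and esophagus and lowest in footpad and trachea, and afterwards it was highest in footpad.

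Ivl, the classical envelope precursor, gave no such differences. Its 20 values ran from 4.35 to 5.17 with a median of 4.55, and 17 of them were below the low level. The changes lay between −0.29 in footpad and 0.15 in vagina, the arrays of both stages overlapped in every tissue, and the 95% intervals reached at most from −0.74 to 0.59. No difference of Ivl was detectable with this probe set, and with values this low it is not known whether the transcript was measured above background.

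Tgm3 fell in oral mucosa and footpad and rose in no tissue. Oral mucosa arrays stood at 7.23 and 6.77 before and at 4.26 and 4.24 after, footpad arrays at 5.21 and 5.31 before and at 4.05 and 3.87 after. Both groups went from above the low level to below it, without overlap. The falls were 2.75 ± 0.15 in oral mucosa (limma adjusted p = 2.61e-08) and 1.30 ± 0.15 in footpad (limma adjusted p = 1.12e-05), and both can be read only as lower bounds because the values after lie below the low level. In esophagus, with 6.49 and 6.61 before and 5.81 and 5.81 after, the change was −0.75 ± 0.15, with a limma adjusted p of 0.00456 but a fold of 1.68. In vagina and trachea all 8 arrays lay between 3.71 and 4.18, below the low level at both stages. After transplantation the esophagus was the only tissue with Tgm3 above the low level, and it was higher there than in oral mucosa, the next in order, by 1.56 (limma adjusted p = 5.87e-06).

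Krt1, the keratin that marks cells leaving the basal layer of the epidermis, was above the low level on every array of a tissue only in footpad. Footpad arrays stood at 6.36 and 6.76 before and at 8.70 and 8.76 after, a rise of 2.17 ± 0.18 (4.49-fold, limma adjusted p = 5.27e-07). All arrays of the other 4 tissues lay between 4.05 and 5.01 at both stages, 14 of 16 of them below the low level, and their changes lay between −0.01 and 0.35. Footpad exceeded each of the other 4 tissues before, by 1.91 to 2.39, and after, by 3.86 to 4.39, and all 8 contrasts passed limma's test. With the other tissues mostly below the low level, these differences can be read only as lower bounds. Krt10, which pairs with Krt1 in keratin filaments, was also highest in footpad, with means of 7.30 before and 7.88 after against 4.61 to 6.0 elsewhere, and its changes passed the test in no tissue. Krt2, a keratin of the upper epidermis, lay between 3.65 and 4.15 in all groups.

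Sbsn and Dmkn are encoded within a short stretch of chromosome 1 and are both secreted by differentiating keratinocytes. The 250 bases upstream of a start of each, and of Cnfn, whose group means correlated with those of Dmkn (r = 0.77), are shown here in RefSeq's GRCr8 assembly, read 5′ to 3′ on the strand of the gene. Capitals mark matches to 2 motifs that were searched on both strands, TGANTCA (bound by AP-1 factors) and TTGCNNAA (a motif of C/EBP factors), which are both active in keratinocytes. For Sbsn the more downstream of 2 annotated starts is shown. The window of the other start holds neither motif.
Sbsn, chr1:95128731-95128980, plus strand: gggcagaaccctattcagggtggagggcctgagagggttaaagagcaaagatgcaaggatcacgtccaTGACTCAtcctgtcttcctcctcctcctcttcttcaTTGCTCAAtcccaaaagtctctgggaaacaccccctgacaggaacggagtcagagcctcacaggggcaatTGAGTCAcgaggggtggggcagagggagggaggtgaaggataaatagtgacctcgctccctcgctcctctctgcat
Dmkn, chr1:95141370-95141619, plus strand: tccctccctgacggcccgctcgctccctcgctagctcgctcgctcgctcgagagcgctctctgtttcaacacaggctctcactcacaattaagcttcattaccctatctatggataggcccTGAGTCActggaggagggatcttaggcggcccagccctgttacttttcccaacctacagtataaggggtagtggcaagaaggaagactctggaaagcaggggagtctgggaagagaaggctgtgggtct
Cnfn, chr1:90081557-90081806, minus strand: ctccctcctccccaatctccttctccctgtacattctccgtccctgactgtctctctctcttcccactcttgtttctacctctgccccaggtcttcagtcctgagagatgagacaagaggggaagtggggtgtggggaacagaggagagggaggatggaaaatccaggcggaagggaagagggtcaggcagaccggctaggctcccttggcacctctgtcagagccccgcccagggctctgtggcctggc
The Sbsn window holds TGANTCA at 182 to 176 and at 76 to 70 bases upstream of the start and TTGCNNAA at 146 to 139. The Dmkn window holds TGANTCA at 129 to 123, and the Cnfn window holds neither motif. Of 33469 such windows of all genes, 6.34% held TGANTCA and 9.22% TTGCNNAA. Among the members, 6 had a window in the table, 7 windows in all, of which 2 held the first motif and 3 the second, the last in Sbsn, Tgm3 and Lgals7. A match describes these letters only.

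Sbsn took both directions. In oral mucosa it stood at 7.62 and 7.30 before and at 5.87 and 5.93 after. In footpad it stood at 6.37 and 6.33 before and at 8.16 and 8.30 after, and in vagina at 5.38 and 5.49 before and at 6.41 and 6.65 after. The stages were apart in all 3 tissues. It fell by 1.56 ± 0.12 in oral mucosa (limma adjusted p = 3.28e-07) and rose by 1.88 ± 0.12 in footpad (limma adjusted p = 2.81e-08) and by 1.10 ± 0.12 in vagina (limma adjusted p = 1.7e-05). The rise in vagina is near the fold threshold, and without the second vagina array after transplantation the change was 0.98 and no longer passed. In trachea Sbsn was near the low level, with 4.88 and 4.72 before and 5.08 and 5.22 after, and in esophagus its change was −0.26 ± 0.12.

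Dmkn fell in oral mucosa, from 9.82 and 9.72 to 7.40 and 7.21, a change of −2.47 ± 0.24 (5.53-fold, limma adjusted p = 3.38e-06). Its other 4 changes lay between −0.61 and 0.76 and did not pass the test. In vagina the arrays went from 6.55 and 7.20 to 7.60 and 7.67, with a limma adjusted p of 0.0365 and a fold of 1.70, and without the second vagina array before, the change was 1.09 and passed. In trachea Dmkn was lowest, with 4.88 and 4.17 before and 5.05 and 5.32 after. Without the first trachea array before, that change was 1.01 and passed as well. Dmkn in trachea was below each of the other 4 tissues after transplantation, by 2.12 to 3.00, and limma's test was passed each time.

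Klk8 fell in oral mucosa, from 7.68 and 8.01 to 6.13 and 5.85, a change of −1.85 ± 0.20 (3.61-fold, limma adjusted p = 1.22e-05). The other 4 tissues gave changes between −0.39 and 0.61. Footpad arrays went from 5.86 and 5.92 to 6.40 and 6.60, with a limma adjusted p of 0.0329 and a fold of 1.53. Oral mucosa had been the tissue with the highest Klk8, ahead of esophagus by 1.19 (limma adjusted p = 0.000764), and after transplantation no pair of tissues differed past the test.

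Lgals7 and Ly6d were the members that rose in trachea beside Cnfn, and Lgals7 changed more there than any other of the 29215 probe sets. Trachea arrays stood at 5.90 and 4.63 before and at 9.84 and 9.71 after for Lgals7. The 2 arrays before differed from each other by more than those of any other group for a member, yet both lay far below the arrays after. The rise was 4.51 ± 0.26 (22.8-fold, limma adjusted p = 1.22e-07), and leaving out either trachea array before moved it to between 3.87 and 5.15. The array at 4.63 lay below the low level, so the size of the rise is uncertain. In vagina Lgals7 went from 8.10 and 8.24 to 10.60 and 10.55, a rise of 2.41 ± 0.26 (5.31-fold, limma adjusted p = 1.69e-05), the 7th largest among all probe sets that were higher there. In footpad it went from 10.53 and 10.58 to 11.77 and 11.90, a rise of 1.28 ± 0.26 (limma adjusted p = 0.00137). Oral mucosa, with 10.29 and 10.39 before and 10.41 and 10.53 after, and esophagus, with 9.92 and 9.97 before and 9.79 and 9.85 after, did not pass, with 95% intervals of −0.43 to 0.68 and −0.68 to 0.43. Lgals7 thus rose in the 2 tissues where it had been lowest and in footpad, where it had been highest. The range of the 5 tissue means was 5.29 before and 2.06 after.

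Ly6d fell in oral mucosa, from 8.94 and 8.91 to 6.72 and 6.77, a change of −2.18 ± 0.13 (4.53-fold, limma adjusted p = 4.77e-08). It rose in trachea, from 6.13 and 6.43 to 8.69 and 8.96, a change of 2.54 ± 0.13 (5.83-fold, limma adjusted p = 6.24e-08). Trachea went from the lowest of the 5 tissues to a level within 0.02 of the highest, footpad (limma adjusted p = 0.956), and oral mucosa went from the highest to the lowest. In vagina, esophagus and footpad the changes were 0.62, −0.52 and 0.86, with limma adjusted p of 0.00446, 0.0178 and 0.000134 and folds of 1.54, 1.43 and 1.82, below the threshold of 2.

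The order of the tissues changed as well. By limma's F test, with a largest difference between 2 tissue means over 1, 8 of the 9 members differed among tissues before transplantation (9.05% of all probe sets), all but Ivl. Afterwards 7 did so (11.9%), all but Ivl and Klk8. For Klk8 the limma adjusted p was 0.048, but the largest difference was 0.73, under the threshold. Over the 10 pairs of tissues for each gene, 50 of 90 contrasts passed before (2.73% over all probe sets) and 30 of 90 afterwards (3.47%). Before, oral mucosa had the highest mean for 7 members, Ivl included, and footpad for Krt1 and Lgals7. Oral mucosa exceeded the next tissue past the test for Sbsn, Dmkn and Klk8, by 1.11 to 1.52, whereas its lead over esophagus did not pass for Cnfn (0.58), Tgm3 (0.45) and Ly6d (0.59), nor its lead over footpad for Ivl (0.01). After, footpad had the highest mean for 7 members, with Tgm3 highest in esophagus and Ivl in oral mucosa. Footpad exceeded the next tissue past the test for Krt1 (3.86), Sbsn (1.70) and Lgals7 (1.25) and not for Cnfn (0.86), Dmkn (0.54), Klk8 (0.23) and Ly6d (0.02). The range of the tissue means was smaller after than before for 7 members and larger for Krt1 and Sbsn. Krt1 went from 2.39 to 4.39 with its lowest tissues below the low level, and Sbsn went from 2.66 to 3.08. Among the 7, Ivl went only from 0.39 to 0.30 and was mostly below the low level. Tgm3, also among them, had its lowest tissues below the low level at both stages. How many of all probe sets had a smaller range was not computed, so the 7 have no background beside them. Without the 4 footpad arrays, 4 of the 9 members differed among tissues after transplantation, an alternative chosen after seeing the data. The share of all probe sets was not computed for it, so this count has no background beside it.

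The likeness between members varied from pair to pair. Over the 10 group means, the 36 pairs of members had a median Pearson's r of 0.53, from −0.20 for Tgm3 with Krt1 to 0.86 for Cnfn with Klk8. Of these pairs 1 was below 0 and 15 were over 0.6. Ivl, Krt1 and Tgm3 were below the low level on most arrays, which limits their correlations. These are descriptions of 10 groups that share tissues and arrays, and r between other genes was not computed for comparison. With the mean of the members' centered group means as a profile, the most similar of 730 genes whose mean over the 20 arrays was above the low level and whose group means spanned over 2 on the log2 scale were Tmprss13 (r = 0.92) and Klk10 (0.92), both serine proteases, the potassium channel gene Kcnj15 (0.90), the hydroxycarboxylic acid receptor gene Hcar2 (0.88), the gasdermin gene Gsdmc (0.87), the thrombomodulin gene Thbd (0.87), the oxidase gene Duox1 (0.86) and Csta, a protease inhibitor of the envelope (0.86). As these genes were picked for their likeness to the profile, their directions follow from that selection and are no separate result. Tmprss13, Klk10, Kcnj15 and Csta fell in oral mucosa, with changes between −1.86 and −1.16. Kcnj15, Gsdmc and Klk10 rose in footpad, by 1.03 to 1.79. In trachea Kcnj15 (1.47), Csta (1.32) and Thbd (1.21) rose, and in vagina Gsdmc (1.67) and Thbd (1.21).

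**Figure D3:**
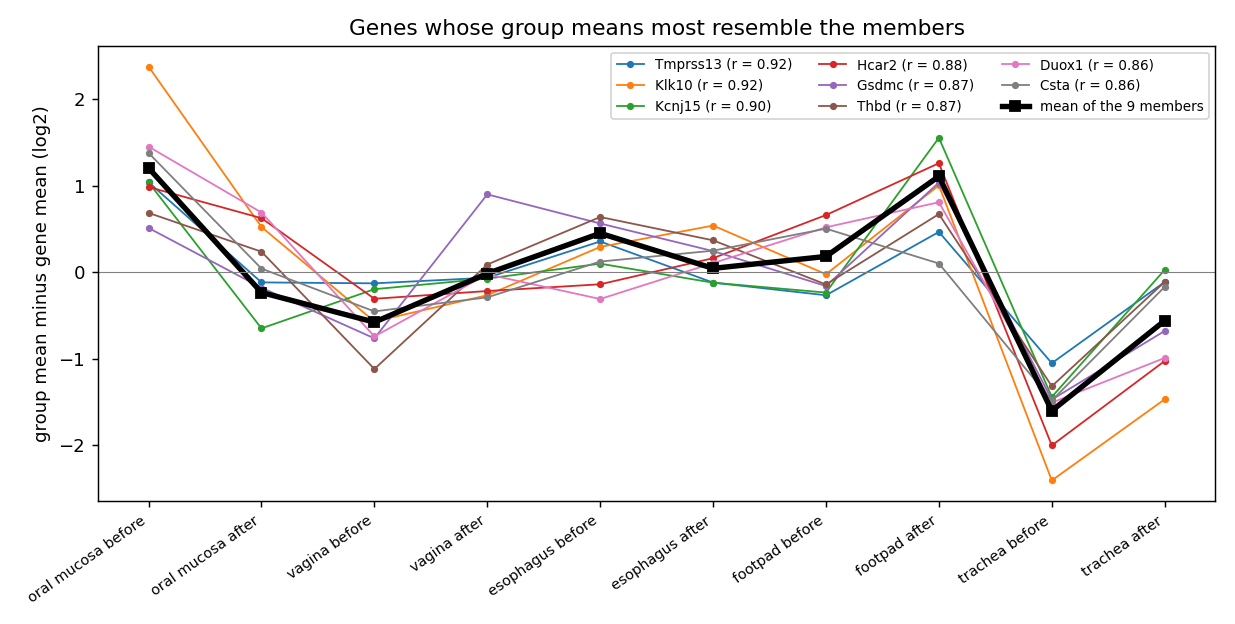
Group means of the 8 genes whose pattern over the 10 groups was most like that of the members, each minus its own mean (log2), with the mean of the 9 members in black. The black line is highest in oral mucosa before (1.21) and footpad after (1.11) and lowest in trachea before (−1.60).

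Genes with related roles moved in part with the members. Of the 13 measured genes of a list of kallikreins, related proteases and inhibitors, which holds neither Klk8 nor Klk9, 7 fell in oral mucosa and 0 rose. Klk9, the gene next to Klk8, fell by 3.01 there. The largest falls within the list were those of Klk12 (−2.36 ± 0.19), Klk11 (−2.16 ± 0.17), Klk10 (−1.86 ± 0.12) and Prss8, a membrane protease of the barrier (−1.58 ± 0.20), with a limma adjusted p of at most 4.78e-05. In footpad 3 of the 13 rose, namely Prss8 by 1.65 ± 0.20, its inhibitor Spint1 by 1.49 ± 0.09 and Klk10 by 1.03 ± 0.12. Klk7, a protease that cuts the junctions of shed cells, passed in no tissue, with changes between −0.42 and 0.70. Its group means lay between 4.36 and 5.52, near or below the low level, so a change could be missed.

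The envelope precursors beside Cnfn and Ivl were measured in 7 of 21 listed genes, and Lor, Flg and Sprr1a were not among them under these symbols. In oral mucosa 4 of the 7 fell, namely Sprr3, Scel, a precursor of the envelope (−2.35 ± 0.17), and the plakins Evpl (−1.74 ± 0.10) and Ppl (−1.34 ± 0.09). In footpad Scel rose by 3.29 ± 0.17 and Evpl by 1.12 ± 0.10. In esophagus Scel and Sprr3 fell and Cst6 rose, in vagina Sprr3 fell and Cst6 rose, and in trachea Sprr3 rose by 1.14 ± 0.15. Scel thus changed in the same direction as Cnfn in oral mucosa (−2.35 and −2.21), esophagus (−1.41 and −1.12) and footpad (3.29 and 2.60), while in trachea its change of 0.27 did not pass. Tgm1, the transglutaminase of the keratinocyte membrane, fell in oral mucosa (−1.26 ± 0.07) and passed in no other tissue.

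Among 14 regulators of keratinocyte differentiation, 6 rose in footpad, and the 4 with the largest changes were Hopx (2.36 ± 0.12), Ovol1 (2.10 ± 0.13), the vitamin D receptor gene Vdr (1.85 ± 0.13) and Prdm1 (1.41 ± 0.19). In oral mucosa Hopx (−1.32 ± 0.12) and Prdm1 (−1.23 ± 0.19) fell. Hopx, a homeodomain cofactor of suprabasal keratinocytes, also rose in vagina (1.49 ± 0.12) and trachea (1.60 ± 0.12). Its 4 calls had the direction of most of the members called in each of these tissues. Of 8 suprabasal keratins beside Krt1, Krt80 fell in oral mucosa, Krt23 rose and Krt16 fell in footpad, Krt16 rose in trachea, and none passed in vagina and esophagus. Of 6 surface and secreted proteins, Il1rn, the antagonist of the interleukin-1 receptor, fell in oral mucosa (−1.39 ± 0.13). Il1rn rose in footpad by 2.18 ± 0.13. Fabp5 fell in oral mucosa (−1.31 ± 0.09) and Calml3 rose in footpad (1.22 ± 0.23). Lypd3, a relative of Ly6d, and Lgals3, another galectin, passed in no tissue. Of 6 desmosome genes, Dsc2 fell in oral mucosa and vagina and Dsc3 rose in trachea.

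**Figure D4:**
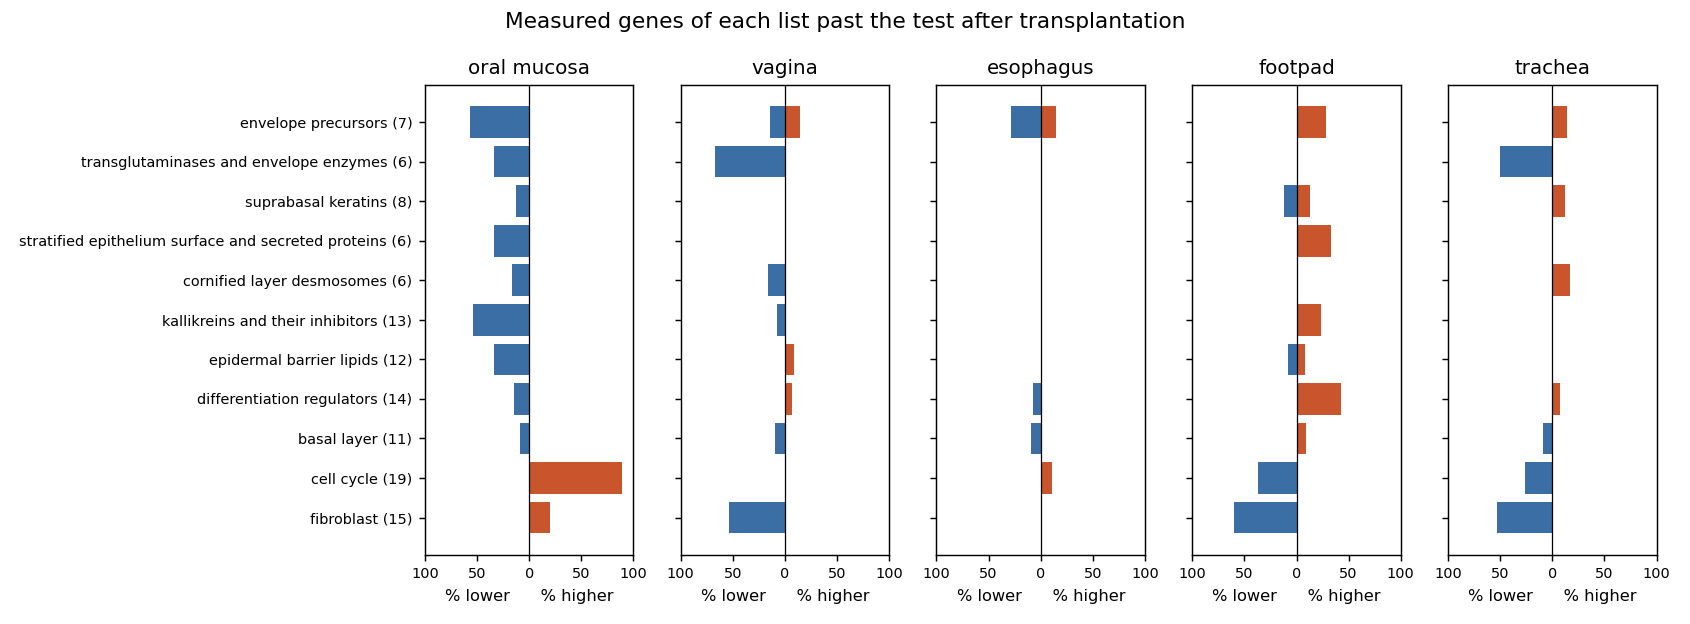
Share of the measured genes of each list that rose (to the right, orange) or fell (to the left, blue) after transplantation, in percent, with the number measured in parentheses and members left out. In oral mucosa the cell cycle list goes up while the kallikreins and envelope precursors go down, and in footpad the cell cycle and fibroblast lists go down while the differentiation regulators go up.

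Other lists moved with these results and their part in them was not tested. Of 19 genes of the cell cycle, 17 rose in oral mucosa, where the members fell, and their mean went from 7.88 and 8.23 on the 2 arrays before to 9.44 and 9.51 after. In footpad 7 of the 19 fell (mean 9.67 and 9.76 before, 8.90 and 9.01 after), and in trachea 5 fell (9.34 and 9.37 before, 8.67 and 8.75 after), the 2 tissues with the most members higher. In vagina 0 of the 19 passed and in esophagus 2 rose. Markers of fibroblasts, 15 measured, fell in 8 genes in vagina, 9 in footpad and 8 in trachea and rose in 3 in oral mucosa. Their mean went from 7.31 and 7.44 to 5.99 and 6.01 in vagina, from 7.45 and 7.52 to 6.15 and 6.17 in footpad, from 7.45 and 7.56 to 6.24 and 6.33 in trachea and from 6.04 and 6.13 to 6.67 and 6.69 in oral mucosa. In esophagus 0 of the 15 passed. Before transplantation 1 of the 15 was below the low level in trachea, 2 in vagina and 2 in footpad, and afterwards 4 in each of these tissues.

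Markers of simple epithelium, 10 measured, fell in 6 genes in oral mucosa, in 6 in vagina and in 3 in trachea and rose in 4 in footpad. Their mean went from 8.05 and 8.22 to 6.62 and 6.77 in oral mucosa, from 8.79 and 9.0 to 6.89 and 6.92 in vagina, from 9.87 and 10.01 to 9.10 and 9.15 in trachea and from 6.31 and 6.50 to 7.26 and 7.35 in footpad. Markers of the mucosal lining, 9 measured, fell in 4 in oral mucosa, 4 in vagina, 2 in esophagus and 1 in trachea and rose in 1 in footpad. The part of both lists in the results for the members was not tested. Markers of leukocytes (13 measured, means between 4.63 and 4.90 on every array, 8 or 9 of them below the low level) and of endothelium (6 measured, means between 4.20 and 4.54, 4 or 5 below it) had low list means at both stages. Ptprc, which marks all leukocytes, lay between 3.28 and 3.78 in the group means. Single leukocyte markers were higher, with Cd14 between 8.60 and 9.79, and Cd68 fell in oral mucosa (−1.96 ± 0.19) and vagina (−1.07 ± 0.19) while Cd74 rose in oral mucosa (1.33 ± 0.12). The part of these markers in the results for the members was not tested. Of 8 airway markers, 0 passed limma's test in any tissue, and their mean in the cells labelled trachea, 5.04 and 5.05 before, lay within the range of 4.60 to 5.15 over all arrays. Nkx2-1, a transcription factor of the airway, had its highest group means in trachea, 6.71 before and 6.67 after against 5.56 to 6.45 in the other tissues, a difference that was not tested.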

How the data were processed

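The deposited table holds log2 values that the authors made with RMA in Affymetrix Expression Console (background correction, quantile normalization, median polish). Their versions and the set of arrays normalized together were not given in the sources used here. Groups follow the tissue and the stage in the labels. The Roman numerals in the titles, possibly passages, were not used, and a part of passage in the changes was not tested. Names came from the platform annotation of the probe sets (15310 with exactly 1 symbol, 323 with several, 13582 unnamed here), with the highest mean over the 20 arrays for each symbol. All 29215 probe sets were fitted with limma 3.58.1 in R 4.3.3 as 10 groups (10 residual, 3.64 prior degrees of freedom), with Benjamini-Hochberg adjustment in each contrast. The mean response was fitted on 10 group means with tissue as a block. The code was tested on simulated data.

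Named are all members, named partners, up to 4 called genes of each list with the largest changes, the 8 genes most like the members and the neighbouring genes. Members and lists were chosen with earlier results of these data known. Alternatives were array centering, a filter on low values, all probe sets of a symbol, a variance trend, a replicate block, no fold threshold, each tissue alone, each array left out and, chosen after seeing the data, the footpad arrays left out. Replicate numbers did not pair the arrays (correlation of duplicate differences between stages −0.15 to 0.03). The number of arrays limits the precision. Promoter windows came from RefSeq (GRCr8), and Krt1, Klk8 and Ly6d were not in that table.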

Additional observations from a re-analysis of the deposited data

Results flagged for a closer look

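For 8 of the 9 genes the change after transplantation differed between tissues in limma's F test, and the largest difference between the changes of 2 tissues was as follows on the log2 scale. It was 4.82 for Cnfn, between footpad and oral mucosa, and 4.72 for Ly6d, between trachea and oral mucosa. For Lgals7 it was 4.63, between trachea and esophagus. Sbsn (3.44), Dmkn (3.23), Klk8 (2.46) and Krt1 (2.18) followed, each with its highest change in footpad or vagina and its lowest in oral mucosa. For Tgm3 it was 2.80, between vagina and oral mucosa. A test for an outlying array within a group needs at least 4 arrays and was not run on these groups of 2.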

How the results depend on the processing

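Of 45 changes (9 genes in 5 tissues), 17 passed the test, and 16 of these kept call and direction under every alternative that gave a value. There were 9 settings besides the 20 arrays left out in turn, but not all of them checked every change. The setting without a fold threshold gave counts only, and a crossed replicate pairing covered oral mucosa only. Leaving out the footpad arrays gave no footpad change, and no member had more than 1 probe set to average. The exception was Sbsn in vagina, 0.98 without vagina array 2 after transplantation. Dmkn passed in vagina (1.09) without vagina array 2 before and in trachea (1.01) without trachea array 1 before. No change reversed. Ivl is in the lowest 40% of probe sets and has no value under that filter. With no fold threshold, 4 genes passed in vagina, 3 in esophagus and 7 in footpad in place of 2, 1 and 5. Without the 4 footpad arrays, 4 genes in place of 7 differed among tissues after transplantation. Of the pairs of tissues, 31 in place of 50 passed before and 11 in place of 30 after, where fewer pairs remain to be compared. No share of all probe sets was computed for this setting or for that without a fold threshold. Leaving out each array in turn gave 6 to 6 genes in oral mucosa, 1 to 3 in vagina, 1 to 1 in esophagus, 5 to 5 in footpad and 3 to 4 in trachea. It gave 8 to 8 with a different response, 0 to 0 with a mean response, 8 to 8 that differed among tissues before and 7 to 8 after, and 49 to 51 and 28 to 31 pairs. A replicate block left the counts at 6, 2, 1, 5 and 3 genes in oral mucosa, vagina, esophagus, footpad and trachea, and at 8, 8 and 7 for a different response and for differences among tissues before and after. The crossed pairing in oral mucosa gave 6. Duplicates of cultures, an unstated passage and values without a detection call limit what these arrays can show. The limit is greatest for Ivl, for Krt1 outside footpad, for Lgals7 in trachea before transplantation and for Tgm3. For Tgm3 it covers vagina and trachea and, after transplantation, oral mucosa and footpad.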

Other observations

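Among 6 transglutaminases and envelope enzymes measured beside Tgm3, the changes did not follow those of the members in vagina and trachea, where members rose. Tgm2, a transglutaminase found in many cell types, fell in vagina (−2.65 ± 0.14), trachea (−2.17 ± 0.14) and also oral mucosa (−2.38 ± 0.14). Padi1, an enzyme that turns arginine into citrulline, fell in vagina (−1.91 ± 0.18) and trachea (−2.29 ± 0.18), as did Padi4 of the same family (−2.17 ± 0.10 and −1.06 ± 0.10), with a limma adjusted p of at most 9.97e-06. Over the 10 group means the list had a Pearson's r of −0.67 with the profile of the members, a description over groups that share arrays. For 12 genes of epidermal barrier lipids it was 0.90. Of these, 4 fell in oral mucosa, namely Cers3, Sult2b1, Aloxe3 and Slc27a4, with changes between −1.30 and −1.07. In footpad Sult2b1 rose by 1.61 ± 0.10 and Nipal4 fell (−1.55 ± 0.11). The largest change of the list was that of Cers4, a ceramide synthase gene, which rose by 3.54 ± 0.12 in vagina (limma adjusted p = 3.36e-10). Of 11 genes of the basal layer Krt15 alone passed, lower in 4 tissues and higher in footpad (3.40 ± 0.14), and of 5 melanocyte markers Mitf rose in footpad (1.87 ± 0.16).

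In the order of genes of the GRCr8 assembly, 5 of the members lie on chromosome 1. Gapdhs, which lies between Sbsn and Dmkn, passed the test in no tissue, with changes between −0.13 and 0.30. Klk9, beside Klk8, fell by 3.01 in oral mucosa and Lynx1, a Ly6 family gene beside Ly6d, fell by 2.64 there, the tissue in which Klk8 and Ly6d fell. The other neighbours that were measured, among them Krt2 and Krt77 beside Krt1 and Lgals4 and Capn12 beside Lgals7, passed in no tissue.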
